A study of Mus musculus with 4 samples.

Results

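The genes described here encode the folding and degradation machinery of the endoplasmic reticulum (ER), the compartment in which secreted and membrane proteins are made. They are 37 named genes, taken by symbol from the 22287 genes of the mRNA table, and each symbol matched a single row. By role they comprise 5 stress sensors and transcription factors, 10 chaperones of the Hsp70, Hsp90 and J-domain kind with their partners, 3 genes of the lectin chaperone cycle, 7 enzymes of disulfide bonds and 12 genes of ER-associated degradation (ERAD). The gene table of the deposited files annotates 31 of the 37 to protein processing in the ER.

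The libraries compared came from N2a cells, a mouse neuroblastoma line widely used as a neuron-like dividing cell, which the labels give as strain C57BL/6. The treated group was cultured in MEM medium with 300 µM manganese for 48 h, and the other group was untreated N2a cells. The labels repeat the treatment text for every library, so the titles alone separate the groups. Each group had 1 library of total RNA depleted of ribosomal RNA, and the small RNA libraries of the series were not used. With 1 library per group no difference below has a replicate check, no test was possible, and each ratio compares these libraries rather than the conditions. In bulk RNA, fewer cells of a type and less RNA per cell cannot be told apart.

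The Mn-treated library held 14606979 reads assigned to mRNA genes and the untreated library 13972452. Of 20 markers of neuroblastoma cells and neurons, 16 had 20 or more reads over the libraries, with summed levels of 3459 and 3356 CPM (counts scaled to a common library total) in the Mn-treated and untreated library. Most of that sum came from the neuronal tubulin Tubb3, with 33715 reads in the Mn-treated and 33400 in the untreated library. Other markers of the list lay further apart, among them Gap43, a growth cone protein, with 578 and 261 reads, the synaptic vesicle gene Syp with 3230 and 2076, and the transcription factor Isl1 with 143 and 252. The neurofilament genes Nefl and Nefm had 0 reads in both. The part of these differences in the results below was not tested. None of 8 markers of leukocytes and microglia was measured, and Ptprc, which marks all leukocytes, had 0 reads. Markers of fibroblasts summed to 5.27 and 3.58, of glia to 26.1 and 19.3, and of endothelium to 6.16 and 5.44 CPM in the Mn-treated and untreated library.

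As background, proteins enter the ER unfolded, and the chaperone BiP (Hspa5) binds them with J-domain partners while protein disulfide isomerases join their cysteines. Glycoproteins cycle on the lectins calnexin and calreticulin, and those that fail to fold are passed through the membrane to the proteasome by ERAD. When unfolded proteins accumulate, the sensors IRE1, ATF6 and PERK start the unfolded protein response, which raises many of these genes through the transcription factors XBP1 and ATF6. In neurons this response is studied for its link to degenerative disease.

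The ER genes did not share a direction. The small lumenal proteins Sdf2l1, Manf and Creld2 had lower read shares with manganese, and so did Pdia5 and Selenos, whereas the oxidase Ero1l, the lectin chaperone Canx, the glycoprotein sensor Uggt1 and the ERAD genes Erlec1, Sel1l and Os9 were higher. A gene was taken as measured when the libraries together held 20 or more of its reads, which was so for 36 of the 37, and all 36 had at least 100. By 1.5-fold, 6 of the 36 were higher, where 21.6% of all 11872 measured genes were, and 5 were lower, where 5.97% of all measured genes were. The log2 ratio is that of read shares, Mn-treated over untreated, with each library scaled by its total. Its median was 0.13 over the 36 ER genes and 0.18 over all measured genes. Relative to that median gene, 4 ER genes were higher by 1.5-fold against 13.4% of all genes, and 6 were lower against 11.3%. The 6 genes Dnajb9, Pdia6, Edem1, Edem3, Derl1 and Derl2 had ratios between 0 and that median and so change sign between the scales.

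All 37 genes together took 0.547% of the mRNA reads in the Mn-treated library and 0.506% in the untreated library. The log2 ratio of these sums was 0.11, with a 95% interval of 0.097 to 0.126. This direction depends on the scale, since the same ratio was -0.07 relative to the median gene and -0.04 with upper-quartile scaling. Intervals here and in brackets below cover counting error only.

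Per length, in FPKM as the authors computed it, the 4 highest genes were Calr, Hyou1, P4hb and Xbp1 in both libraries. Calr, the lumenal calcium-binding lectin, was the most abundant with 246 FPKM in the Mn-treated and 257 in the untreated library. Hyou1 came next, with 117.14 and 116 FPKM. P4hb was at 117.11 and 87.0, Xbp1 at 81.5 and 96.9, and Hspa5 at 80.4 and 64.6 FPKM. Canx stood in place 6 in the Mn-treated library and in place 9 in the untreated one, and Manf in places 8 and 5. The lowest measured genes were Dnajc3, with 1.77 and 1.92 FPKM, and Ero1lb, with 1.92 and 1.21. Derl3, the derlin of secretory tissues, had 0 reads in the Mn-treated and 2 in the untreated library. Both counts lie under the floor of 3 reads, so no ratio is given for it.

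**Figure D1:**
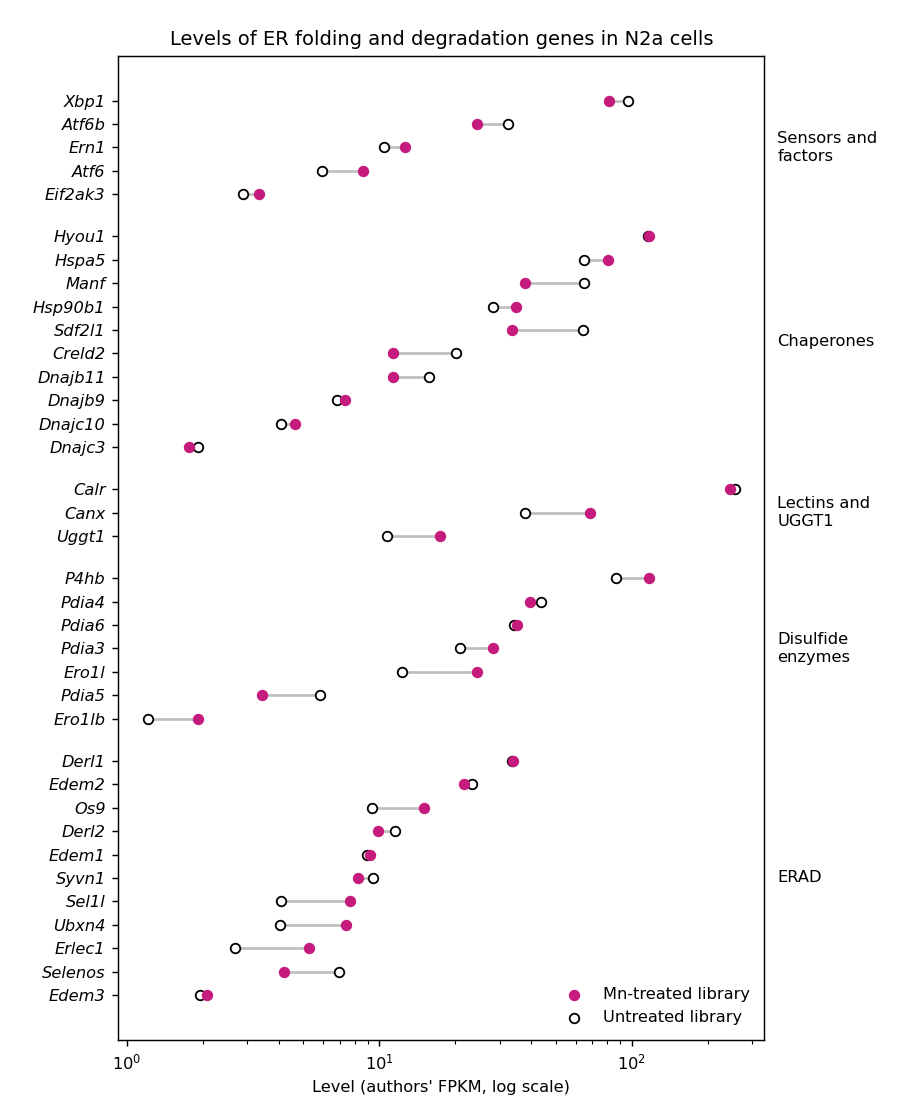
Level of each of the 36 measured ER genes in FPKM on a log axis, with filled points for the Mn-treated library and open points for the untreated library (1 library each), grouped by role. Canx and Ero1l lie further right in the Mn-treated library, and Sdf2l1, Manf and Creld2 further left. Calr is the highest in both, at 246 and 257 FPKM.

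Many ER genes carry an ER stress response element (ERSE) in the promoter, a pair of short boxes bound by ATF6 together with the CCAAT factor NF-Y. To see whether genes with this element moved together, promoter windows of RefSeq (build GRCm38.p6, 250 bases before to 50 after the start of the gene) were searched on both strands for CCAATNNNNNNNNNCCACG. Windows were in the table for 32 of the 37 genes, with Ero1l and Ero1lb entered there as Ero1a and Ero1b. Atf6, Hyou1, Manf, Erlec1 and Derl1 had no entry. Exact matches stood in 10 of the 32 (31.2%) and in 0.119% of all 32851 windows. The related element ERSE-II, which is ATTGG, 1 base of any kind and CCACG, matched in Dnajb11 alone among the 32, and in 0.0365% of all windows. It shares the CCACG box with ERSE. The letters TGACGTGG, bound by XBP1, and TGATGNAAT, bound by ATF4 complexes, matched in none of the 32, and in 0.676% and 0.965% of all windows.

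The promoters of Canx, Hspa5 and Creld2 are shown whole, since these genes carry the same element and had the highest, a middle and the lowest ratio among its carriers. Capitals mark the ERSE match. The Canx window is chr11:50325624-50325923 on the minus strand, that of Hspa5 chr2:34771840-34772139 on the plus strand and that of Creld2 chr15:88819396-88819695 on the plus strand.
Canx: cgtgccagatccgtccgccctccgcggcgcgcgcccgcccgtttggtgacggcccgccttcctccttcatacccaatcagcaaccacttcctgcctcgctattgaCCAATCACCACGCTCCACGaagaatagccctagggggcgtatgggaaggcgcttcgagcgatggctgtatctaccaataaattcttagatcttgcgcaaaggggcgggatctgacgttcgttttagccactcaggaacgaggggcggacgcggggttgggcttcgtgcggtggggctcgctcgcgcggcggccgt
Hspa5: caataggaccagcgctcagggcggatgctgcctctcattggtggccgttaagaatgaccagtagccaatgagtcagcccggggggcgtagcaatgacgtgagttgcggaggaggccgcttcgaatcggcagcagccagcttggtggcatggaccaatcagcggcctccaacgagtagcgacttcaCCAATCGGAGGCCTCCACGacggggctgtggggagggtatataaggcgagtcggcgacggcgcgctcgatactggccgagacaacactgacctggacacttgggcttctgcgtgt
Creld2: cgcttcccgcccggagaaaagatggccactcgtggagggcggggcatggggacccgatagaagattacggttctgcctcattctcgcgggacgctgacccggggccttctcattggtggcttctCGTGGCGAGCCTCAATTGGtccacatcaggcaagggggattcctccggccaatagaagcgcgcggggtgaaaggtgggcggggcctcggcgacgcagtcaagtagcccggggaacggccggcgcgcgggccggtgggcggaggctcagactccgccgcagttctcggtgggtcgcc
The Canx match ran from base -145 to -127 before the gene start, the Hspa5 match from -65 to -47 and the Creld2 match, on the opposite strand, from -126 to -108.

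The same element is shown for 5 further genes with 10 bases on either side, to let the spacer between the boxes be compared. They lie at chr14:118937817-118937855 (plus strand) for Dnajc3, chr8:84847065-84847103 (minus) for Calr, chr12:17266481-17266519 (plus) for Pdia6, chr19:6046522-6046560 (plus) for Syvn1 and chr13:12565672-12565710 (plus) for Ero1lb.
Dnajc3: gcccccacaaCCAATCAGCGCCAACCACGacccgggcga
Calr: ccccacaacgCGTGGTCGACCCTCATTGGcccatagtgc
Pdia6: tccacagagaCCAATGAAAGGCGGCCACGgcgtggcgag
Syvn1: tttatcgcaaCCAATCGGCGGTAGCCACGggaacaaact
Ero1lb: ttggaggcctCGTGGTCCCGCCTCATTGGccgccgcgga
In Calr and Ero1lb the element reads on the opposite strand. Hsp90b1 held 2 matches, from base -212 to -194 and, on the opposite strand, from -107 to -89, and Derl3 held 1.

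Genes that carry the element did not share a direction. The 9 measured carriers ran from a log2 ratio of -0.84 (Creld2) to 0.85 (Canx), with a median of 0.01. The 22 measured genes whose window held no match ran from -0.94 to 0.96, with a median of 0.13. Dnajb11, which is among the 22 and holds ERSE-II, was at -0.40. A match is a run of letters and not a measured binding site. Only exact letters were searched, so a window with a near match counts as holding none.

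**Figure D2:**
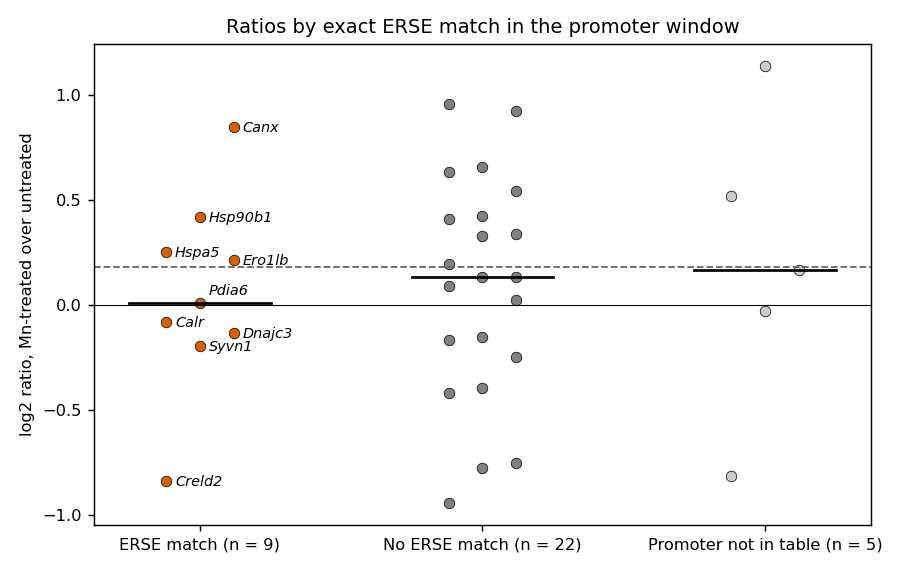
Log2 ratio of read shares, Mn-treated over untreated, for measured ER genes whose promoter window holds an exact ERSE match (9 genes, named), holds none (22 genes) or was not in the table (5 genes). Bars are medians and the dashed line is the median of all measured genes (0.18). Carriers spread from -0.84 to 0.85.

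Among the sensors and their factors, none was past 1.5-fold with library totals as the scale, and the median log2 ratio of the 5 genes was 0.20. Ern1, which encodes IRE1, the kinase and nuclease that splices Xbp1 mRNA, had 1497 reads in the Mn-treated and 1140 in the untreated library, a log2 ratio of 0.33 [0.22 to 0.44]. Eif2ak3, which encodes PERK, the kinase that slows translation by phosphorylating eIF2 alpha, had 373 and 311 reads, at 0.20 [-0.02 to 0.42]. Its interval includes equal shares. With the length correction described further on, both change sign, to -0.04 for Ern1 and -0.17 for Eif2ak3. Xbp1 had 3952 and 4491 reads, at -0.25 [-0.31 to -0.19], and these gene counts do not tell its spliced from its unspliced form.

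The 2 ATF6 paralogs, membrane-anchored transcription factors released by cleavage in the Golgi, differed in direction. Atf6 had 1545 reads in the Mn-treated and 1031 in the untreated library, a log2 ratio of 0.52 [0.40 to 0.63]. Atf6b had 1547 and 1982 reads, at -0.42 [-0.52 to -0.32], and at -0.60 relative to the median gene, which is past 1.5-fold. With the length correction described further on, Atf6 was at 0.06, close to genes of similar length, and Atf6b at -0.63. Atf6 made up 50.0% [48.2 to 51.7] of the reads of the pair in the Mn-treated library and 34.2% [32.5 to 35.9] in the untreated library. This share does not depend on the scale of the libraries, and its intervals, which cover counting error only, do not overlap. Neither it nor the pair shares given below were corrected for the trend with transcript length. Shares of further pairs were computed and are not given. Between the libraries, the intervals overlapped for Derl1 with Derl2 and for Erlec1 with Os9, and for none of the other pairs computed. The length index, defined further on, was 2.98 for Atf6 and 1.06 for Atf6b.

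The chaperones of the BiP system took 0.158% of mRNA reads in the Mn-treated library and 0.164% in the untreated library. Of the 10, 3 were lower and 0 higher by 1.5-fold, where 5.97% and 21.6% of all measured genes were, and their median log2 ratio was -0.08. Relative to the median gene the counts were also 3 and 0, against 11.3% and 13.4%. Those lower were the small lumenal proteins. Sdf2l1, which keeps the J-domain protein ERdj3 in the BiP complex, had 919 reads in the Mn-treated and 1692 in the untreated library. Its share was 1.92-fold lower, a log2 ratio of -0.94 [-1.06 to -0.83]. Creld2, a cysteine-rich protein induced by ER stress, had 383 and 655 reads, at -0.84 [-1.02 to -0.65]. Manf, a BiP cofactor that is also secreted as a neurotrophic factor, had 1078 and 1817 reads, at -0.82 [-0.93 to -0.71]. All 3 stayed past 1.5-fold on each of the 7 alternative settings tried for single genes. Dnajb11, which encodes ERdj3, had 540 and 680 reads, at -0.40 [-0.56 to -0.23].

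The large chaperones lay elsewhere. Hspa5 had 5019 reads in the Mn-treated and 4027 in the untreated library, a log2 ratio of 0.25 [0.19 to 0.31], close to the median gene. Hsp90b1, which encodes GRP94, the ER member of the Hsp90 family, had 2329 and 1662 reads, at 0.42 [0.33 to 0.51]. Hyou1, the nucleotide exchange factor of BiP, had 11908 and 11607 reads, at -0.03 [-0.06 to 0.01]. Set against each other, Hspa5 made up 84.5% [83.6 to 85.4] of the summed Hspa5 and Sdf2l1 reads in the Mn-treated library and 70.4% [69.2 to 71.6] in the untreated library. Among the other J-domain genes, Dnajc10, a reductase, was at 0.34 [0.05 to 0.63] with 237 and 179 reads. Dnajb9, a repressor of IRE1, was at 0.09 [-0.10 to 0.29] with 445 and 399 reads, and Dnajc3, a BiP partner, at -0.13 [-0.40 to 0.14] with 225 and 236.

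In the lectin chaperone cycle, the membrane-bound lectin and the glucosyltransferase were higher and the lumenal lectin was not. Canx, calnexin, had 6335 reads in the Mn-treated and 3362 in the untreated library. Its share was 1.80-fold higher, a log2 ratio of 0.85 [0.79 to 0.91]. Uggt1, which puts a glucose back on misfolded glycoproteins so that they bind the lectins again, had 2279 and 1403 reads, at 0.64 [0.54 to 0.73], and at 0.45 relative to the median gene, which is no longer past 1.5-fold. Calr, calreticulin, had 13254 and 13405 reads, at -0.08 [-0.12 to -0.05]. Canx made up 32.3% [31.7 to 33.0] of the Canx and Calr reads in the Mn-treated library and 20.1% [19.4 to 20.7] in the untreated library.

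Of the 7 disulfide enzymes 1 was higher and 1 lower by 1.5-fold, against 21.6% and 5.97% of all measured genes. Ero1l, the oxidase that recharges protein disulfide isomerase and is also known as a hypoxia-induced gene, had 1829 reads in the Mn-treated and 900 in the untreated library. Its share was 1.94-fold higher, a log2 ratio of 0.96 [0.84 to 1.08]. Its paralog Ero1lb had 118 and 97 reads, at 0.22 [-0.18 to 0.62]. Ero1l made up 93.9% [92.79 to 94.96] of the reads of the pair in the Mn-treated library and 90.3% [88.3 to 92.0] in the untreated library. Pdia5 had 153 and 251 reads, at -0.78 [-1.08 to -0.48]. Its estimated counts were not whole numbers, so reads may be shared with another gene model and its value is uncertain.

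The more abundant isomerases stayed within 1.5-fold. P4hb, protein disulfide isomerase itself, had 8270 reads in the Mn-treated and 5945 in the untreated library, at 0.41 [0.36 to 0.46]. Pdia3, the isomerase that works with the lectins on glycoproteins, had 1940 and 1383 reads, at 0.42 [0.32 to 0.52]. Pdia6 had 1871 and 1775 reads, at 0.01 [-0.08 to 0.11], and Pdia4 had 2340 and 2510, at -0.17 [-0.25 to -0.08]. Pdia3 made up 45.3% [43.8 to 46.8] of the Pdia3 and Pdia4 reads in the Mn-treated library and 35.5% [34.02 to 37.05] in the untreated library.

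**Figure D3:**
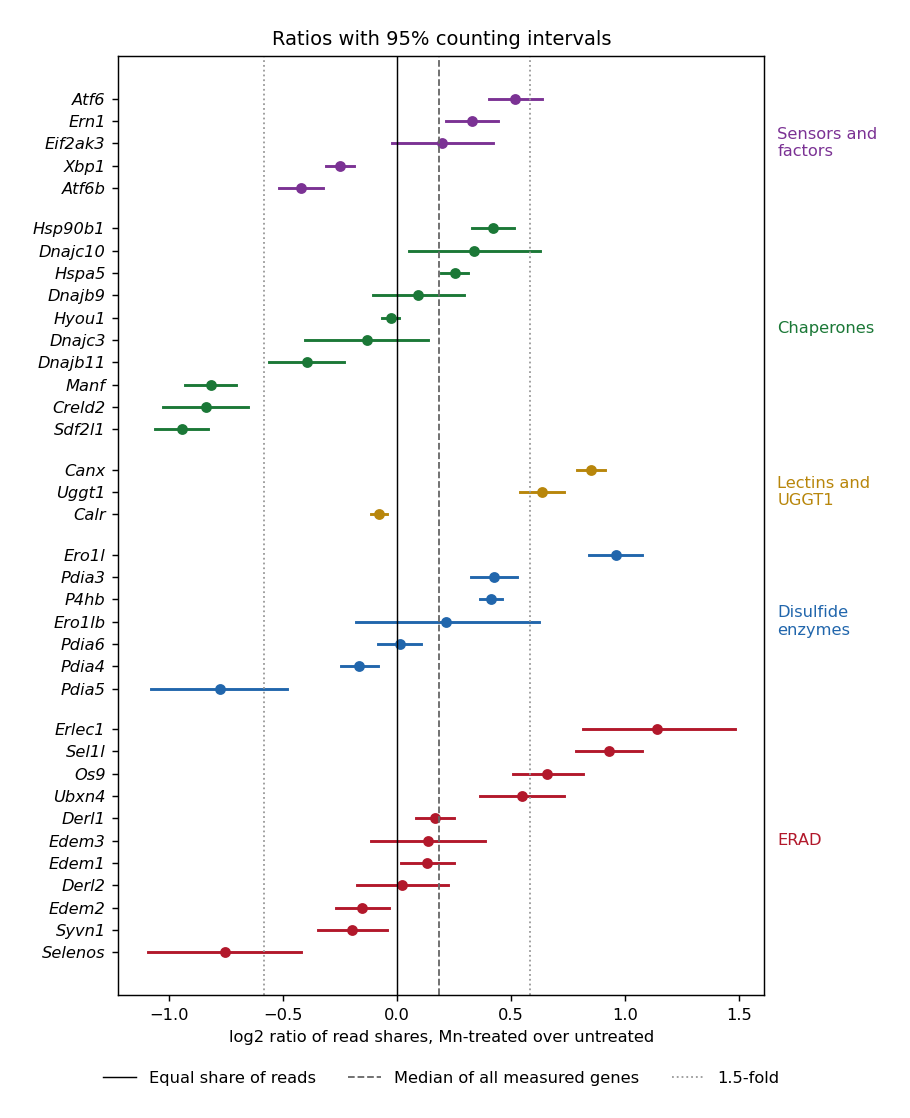
Log2 ratio of read shares, Mn-treated over untreated, for the 36 measured ER genes by role, with lines for 95% counting intervals. The dashed line is the median of all measured genes (0.18) and dotted lines mark 1.5-fold. Erlec1 is highest at 1.14 and Sdf2l1 lowest at -0.94.

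Among the degradation genes, the glycan-reading lectins and their adaptor were higher and the ligase was not. The 11 measured ERAD genes had a median log2 ratio of 0.14, with 3 higher and 1 lower by 1.5-fold, against 21.6% and 5.97% of all measured genes. That median was -0.05 relative to the median gene, with 2 genes higher, against 13.4% of all measured genes. With the length correction it was -0.06, with 1 higher, against 12.5%. Erlec1, a lectin that hands glycoproteins to the ubiquitin ligase, had 252 reads in the Mn-treated and 109 in the untreated library. Its log2 ratio was 1.14 [0.82 to 1.48], the only ER gene past 2-fold with library totals as the scale. Relative to the median gene Erlec1 was at 0.96, within 2-fold, whereas Sdf2l1 at -1.13 and Creld2 at -1.02 were past it. Os9, a lectin with the same role as Erlec1, had 922 and 558 reads, at 0.66 [0.51 to 0.81], and at 0.48 relative to the median gene. The adaptor Sel1l, which joins these lectins to the ligase, had 1178 and 592 reads, at 0.93 [0.78 to 1.07], from estimated counts that were not whole and so are uncertain. The ligase itself, Syvn1 (HRD1), had 673 and 737 reads, at -0.20 [-0.35 to -0.04]. Sel1l made up 63.6% [61.4 to 65.8] of the Sel1l and Syvn1 reads in the Mn-treated library and 44.5% [41.8 to 47.3] in the untreated library.

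Of the other ERAD genes, Ubxn4 and Selenos lay furthest from equal shares, in opposite directions. The mannose-trimming genes Edem1, Edem2 and Edem3 were at 0.13, -0.15 and 0.14, of which Edem1 had 1320 reads in the Mn-treated and 1151 in the untreated library. Derl1, a derlin of the membrane channel, had 2512 and 2142 reads, at 0.17 [0.08 to 0.25], and Derl2 had 423 and 398, at 0.02 [-0.18 to 0.22]. Ubxn4, which recruits the p97 ATPase to the membrane, had 608 and 398 reads, at 0.55 [0.36 to 0.73]. Selenos, a selenoprotein that binds derlins and p97, had 122 and 197 reads, at -0.75 [-1.09 to -0.42].

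Ratios taken from the authors' deposited table, which are ratios of FPKM, differed from those of the counts by more than 0.15 on the log2 scale for 6 of the 36 genes. In the authors' deposited table Ero1lb is at 0.67 and Ubxn4 at 0.87, both past 1.5-fold there. Erlec1 is at 0.97, Dnajc10 at 0.19, Derl1 at 0.01 and Derl2 at -0.22 in the authors' deposited table. With these ratios 8 ER genes were higher by 1.5-fold, against 21.7% of all measured genes, and 5 were lower, against 6.93%.

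Ratios were higher for longer transcripts over the whole table, and the ER genes showed the same trend. An index of length was taken as reads per FPKM unit over both libraries, relative to the median gene. With all measured genes put into 10 bins of this index, the median ratio on the log2 scale was -0.002 in the shortest bin and 0.46 in the longest. Over the 36 ER genes, the Spearman correlation of ratio and index was 0.56 and the Pearson correlation with the log2 index was 0.59, against 0.27 and 0.17 over all 11872 genes. These describe genes of the same libraries, which are not independent replicates. The sets also differ in depth, since all 36 ER genes had at least 100 reads whereas measured genes needed only 20. No correlation over genes of like depth was computed, so the larger values of the ER genes cannot be read as a stronger trend. The 5 genes lower by 1.5-fold had indices between 0.46 (Sdf2l1) and 0.74 (Pdia5), and the 6 higher ones between 0.76 (Erlec1) and 2.55 (Sel1l).

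With the median of the same length bin subtracted, Sdf2l1 was at -0.92, Creld2 at -0.82, Manf at -0.79, Pdia5 at -0.84 and Selenos at -0.73. Erlec1 was at 1.07, Ero1l at 0.73 and Canx at 0.59, still past 1.5-fold. Sel1l at 0.47, Os9 at 0.45 and Uggt1 at 0.17 were not. Atf6b at -0.63 and Dnajc3 at -0.59 were past 1.5-fold in this setting. In all, 3 ER genes were higher, against 12.5% of all measured genes, and 7 were lower, against 9.59%. The part of length in the ratios was not tested.

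**Figure D4:**
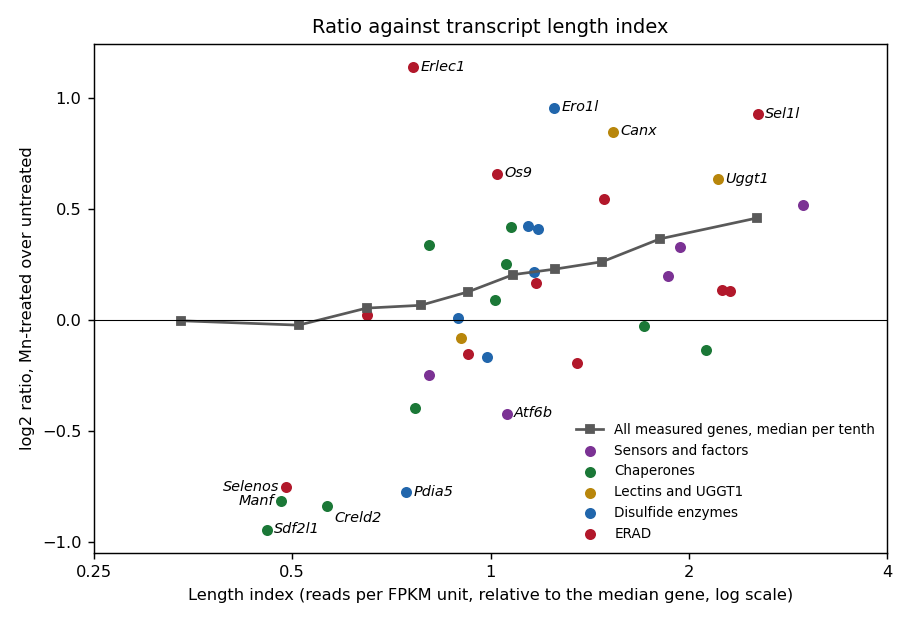
Log2 ratio, Mn-treated over untreated, against the length index on a log axis for the 36 measured ER genes, coloured by role, with grey squares for the median of all measured genes in each of 10 bins of the index. Sdf2l1, Manf, Creld2, Selenos and Pdia5 lie on the short side below the grey line.

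Other genes of the ER were looked up in 5 lists with 127 measured genes in all, of which 19 were higher and 3 lower by 1.5-fold, with a median log2 ratio of 0.12. These are 15.0% and 2.36% of the genes, against 21.6% and 5.97% of all measured genes. Relative to the median gene 11 were higher and 3 lower, against 13.4% and 11.3% of all measured genes. No share over genes of like read depth was computed, here or for the other counts. Receptors of ER-phagy, the autophagy of ER sheets and tubules, and ER-shaping genes stood highest, with a median of 0.49 over 14 genes. Of these 5 were higher (35.7%) and 0 lower, and 4 and 0 relative to the median gene. With the length correction the median of this list was 0.23, still the highest of the 5 lists, with 4 higher and 0 lower. Retreg1 (FAM134B), a receptor of this pathway, had 108 reads in the Mn-treated and 48 in the untreated library, at 1.10 [0.60 to 1.63]. Ccpg1, another receptor, had 221 and 110, at 0.94 [0.61 to 1.29], from estimates that were not whole. Reep5 was at -0.22, and Retreg2 at 0.12, which is below the median gene. Atl2, a membrane-fusing GTPase named here after its value was seen, had 92 reads in the Mn-treated and 0 in the untreated library on a fractional estimate. Set against 3 reads in the untreated library, its share was 29.3-fold higher. This bound allows for low counts only, and not for reads that may be shared with another gene model, so it is uncertain. The median of this list was the same with Atl2 at that bound.

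Of 31 further ERAD and p97 genes 6 were higher and 1 lower, with a median of 0.11. These are 19.4% and 3.23%, against 21.6% and 5.97% of all measured genes. Relative to the median gene 4 were higher and 1 lower, against 13.4% and 11.3% of all measured genes. The one lower was Herpud1, a scaffold of the HRD1 complex and a well-known target of the unfolded protein response, with 5370 reads in the Mn-treated and 8439 in the untreated library, at -0.72 [-0.77 to -0.67]. Its relative Herpud2 had 292 and 136 reads, at 1.04 [0.74 to 1.34]. Txndc16 had 272 and 72 reads, at 1.85 on fractional estimates, and Aup1 was at -0.34. Of 34 other folding enzymes 5 were higher (14.7%) and 1 lower (2.94%), with a median of 0.24. Relative to the median gene the counts were 1 and 1. They were 3 and 1 with the length correction, against 12.5% and 9.59% of all measured genes. With the ratios of the authors' deposited table they were 7 and 0, against 21.7% and 6.93%. The collagen prolyl hydroxylases P4ha1 and P4ha2 were highest, at 0.87 [0.70 to 1.06] and 0.70 [0.61 to 0.79], with Txndc11 at -0.60 on fractional estimates and Fkbp2 at -0.35. Relative to the median gene P4ha2 was at 0.52, within 1.5-fold.

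The translocon and oligosaccharyltransferase genes had a median of 0.03 over 29 genes, with 2 higher (6.9%) and 0 lower, also relative to the median gene. Of all measured genes 21.6% were higher and 5.97% lower, or 13.4% and 11.3% relative to the median gene. With the length correction 1 was higher and 0 lower, against 12.5% and 9.59% of all measured genes. The 2 higher with library totals as the scale were Sec62 and its partner Sec63. Sec62 had 205 reads in the Mn-treated and 92 in the untreated library, at 1.09 [0.73 to 1.46]. Sec63 was at 0.95 on fractional estimates. The authors' deposited table gives Sec63 at 1.66. Ostc was at -0.39 and Srprb at -0.34. Signalling genes downstream of the sensors had a median of -0.04 over 19 genes, with 1 higher and 1 lower (5.26% each). Of the 19, 15 lay below the median gene. Mbtps2, the protease that cuts ATF6 within the membrane, was at 0.73 on fractional estimates, and Ppp1r15b at 0.33. Traf2, an adaptor of IRE1, was at -0.59, and Bax at -0.33. Both calls depend on the setting. Mbtps2 was at 0.54 relative to the median gene, and the authors' deposited table gives it at 0.58 and Traf2 at -0.56, all within 1.5-fold.

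**Figure D5:**
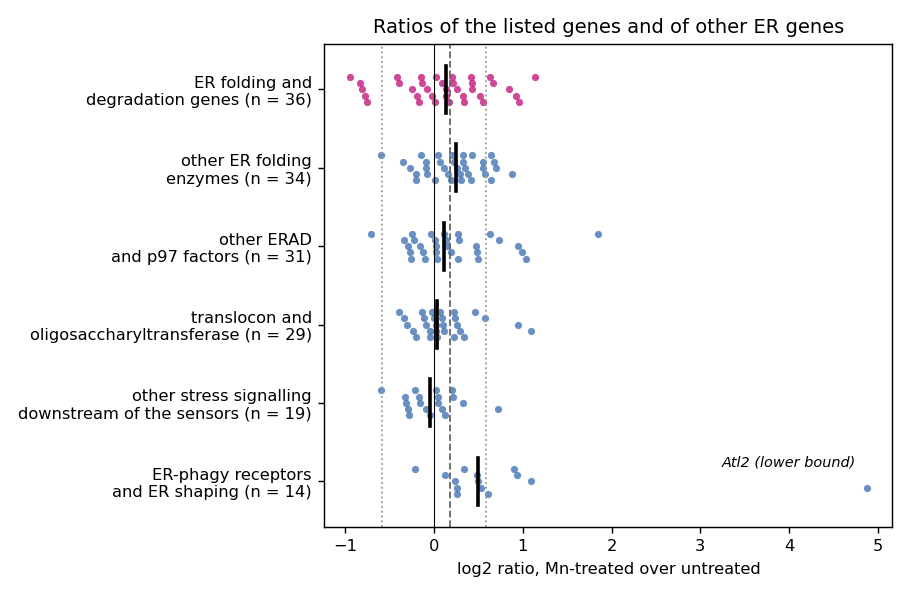
Log2 ratio, Mn-treated over untreated, of the measured ER folding and degradation genes and of the genes in 5 other ER lists, with a point per gene and a bar at each median. The dashed line is the median of all measured genes (0.18) and dotted lines mark 1.5-fold; Atl2, with 0 reads in the untreated library, is drawn at its lower bound. The ER-phagy list has the highest median, 0.49, which is 0.23 with the length correction (not drawn).

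Circular RNAs (circRNAs) were counted by reads across a back-splice junction. Of 2253 circRNAs, 9 were assigned in the deposited table to 5 of the ER genes, with 41 junction reads in the Mn-treated and 29 in the untreated library, out of 9433 and 11665. The log2 ratio of these sums, scaled by the junction reads of all circRNAs, was 0.80 [0.085 to 1.54]. No other scale was tried. The mRNA reads of the libraries differ in the other direction, with 14606979 in the Mn-treated and 13972452 in the untreated library. One of the 9, assigned to Hspa5, is typed antisense and lies on the minus strand, opposite to the gene. Without it, a setting chosen after seeing the data, the sums were 38 and 27, at 0.79 [0.050 to 1.57]. Canx hosted 3 circRNAs with 19 and 15 junction reads, at 0.64 [-0.41 to 1.73]. Of these, the one at chr11:50307470-50308929 on the minus strand, made of annotated exons with a spliced length of 417 bases, had 12 and 5. Pdia5 had 9 and 6 junction reads, Atf6 5 and 6, and Uggt1 3 and 0. The sense circRNA of Hspa5 had 2 and 0, and the antisense one 3 and 2. Counts of this size cannot show a difference for any single host gene. Coordinates are as deposited, and all 9 lie inside the host gene's span in GRCm38, although the submitters' processing notes name mm9.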

How the data were processed

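Total RNA libraries of Mn-treated and untreated N2a cells were compared, 1 of each. The submitters' processing notes list fastp (version 0.18.0), Bowtie2, StringTie and build mm9. The roles of these tools, the counting program, its use of strand and the annotation were not stated there. The mRNA table, as the authors deposited it, holds estimated counts, not whole for 13.3% of genes, and FPKM values. The deposited log2 fold changes are ratios of FPKM, and the deposited p-values and false discovery rates were not used. The circRNA table, as deposited, holds whole junction read counts. Estimated counts were rounded. Ratios are of counts plus 0.5 over column totals, with exact conditional binomial (Clopper-Pearson) 95% intervals. These cover counting error only, since each group had 1 library. Amplified reads carry no molecular identifiers, so each read was counted as independent and the intervals may be too narrow. Measured genes had 20 or more reads in all. Symbols with several rows were taken at the row with most reads, and 8 list symbols were found as synonyms. Named genes are all members and, per list of other ER genes, the 2 highest and 2 lowest with 100 or more reads. The members and lists were chosen with earlier results of these data known. Alternatives were other scales, filters, pseudocounts, FPKM, unrounded or whole counts only, 2-fold, and a length correction. The ratio step was tested on simulated data. Python 3.11.15, scipy 1.17.1 and pandas 2.3.3 were used.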

Additional observations from a re-analysis of the deposited data

How the results depend on the processing

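For single genes 7 alternatives were tried. These were 2 other scales, FPKM, 2 other pseudocounts, unrounded counts and a length correction chosen after seeing the data. All 11 ER genes past 1.5-fold kept their sign under each. Apart from FPKM, these alternatives shift a ratio by less than 1.5-fold, so they could hardly turn the sign of such a gene. Uggt1 and Os9 stayed past 1.5-fold in 4 of the 7 and Sel1l in 6, and the rest in all 7. At 2-fold, with library totals as the scale, 1 was higher and 0 lower. With the length correction 3 were higher, the median of all ER genes was -0.114, that of the sensors -0.169, of the chaperones -0.429 and of the lectin cycle 0.175. Relative to the median gene the chaperones were at -0.262, the lectin cycle at 0.453 and the summed reads at -0.0712. With upper-quartile scaling these were -0.236, 0.48 and -0.0446, and the summed FPKM gave 0.0187. Of the rest, 74 group values and counts moved little by the rule used. Counts moved by at most 1.5 times, medians by less than the counting error of their middle gene or genes, and sums by less than their own. That error belongs to single genes and not to a median, and signs could still change. Relative to the median gene, the median of all ER genes was -0.0476 and that of ERAD -0.0462. With upper-quartile scaling they were -0.0209 and -0.0196. No paired analysis was possible because each group had 1 library. Depth limits single genes most for Ero1lb, Selenos and Erlec1, whose counting intervals were the widest, and limits all circRNAs.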
